A study of Mus musculus with 30 samples.

Results

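The Hox genes were described in 3 pools of spinal motoneurons of the adult mouse. The members were all probe sets whose array annotation gave a single symbol and whose symbol named a gene of Hox cluster a, b, c or d. This rule found 38 probe sets for 31 genes among 12422 probe sets tested, and the reference gene table lists 39 Hox genes. Cluster a held 14 of the probe sets, cluster b 10, cluster c 5 and cluster d 9. By paralogue group, which is the number in the gene's name, 6 probe sets belonged to groups 1 to 3, 20 to groups 4 to 8, 4 to group 9 and 8 to groups 10 to 13. Hox genes with no member probe set were not analysed here. Left out by the rule were 3 probe sets annotated with several Hox symbols and 2 for the antisense transcript Hoxa11os.

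The 3 pools were intermediolateral column motoneurons (IML), lateral motoneurons (LMN) and medial motoneurons (MMN), and LMN and MMN together are called somatic below. Intermediolateral neurons are the preganglionic neurons of the autonomic nervous system, whereas the lateral and medial pools drive skeletal muscle. All 5 animals were adult, sham-operated control mice, and each gave all 3 pools by laser capture from its spinal cord, with 400 captures per pool. The RNA of each pool was amplified in 2 rounds as 2 separate targets, each hybridised to its own Affymetrix array, and the mean of the 2 arrays was 1 sample, for 15 samples in all. The labels used here give neither the spinal level that was captured nor the kind of sham operation, and a capture can take in tissue around a neuron.

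Hox genes encode homeodomain transcription factors that lie in 4 clusters, and the order of the genes along a cluster matches the order in which they are switched on from head to tail in the embryo. In the developing spinal cord the low-numbered groups mark the hindbrain and neck, the middle groups the forelimb and trunk levels, and the high-numbered groups the lumbar and sacral levels. Hox proteins act with Pbx and Meis cofactors to set which motor column and muscle pool a motoneuron joins. Patterns laid down in the embryo are kept by Polycomb and Trithorax chromatin proteins.

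RefSeq promoter windows of build GRCm38.p6, the 250 bases before a transcript's start, were found for 20 of the 31 genes, as 22 windows. The windows of Hoxd10, Hoxd11 and Hoxa10 are shown because these high-numbered genes were among the members lowest in IML relative to somatic, and that of Hoxd1 because its level set 1 sample apart. Capitals mark matches on either strand to TGATTNAT (a joint Hox and Pbx site), TTTAT (the core letters of Cdx and posterior Hox sites), CCAAT (the CCAAT box) and TATAAA (the TATA box). TATAAA read on the other strand holds TTTAT, so a single stretch can count for both. The Hoxd10 window is chr2:74691641-74691890 on the plus strand, the Hoxd11 window chr2:74682073-74682322 on the plus strand, the Hoxa10 window chr6:52234940-52235189 on the minus strand and the Hoxd1 window chr2:74762730-74762979 on the plus strand.
Hoxd10: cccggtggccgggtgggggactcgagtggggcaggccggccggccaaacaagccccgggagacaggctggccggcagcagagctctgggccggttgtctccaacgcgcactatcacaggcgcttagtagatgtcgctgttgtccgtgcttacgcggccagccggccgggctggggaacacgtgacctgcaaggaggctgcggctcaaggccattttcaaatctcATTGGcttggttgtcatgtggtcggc
Hoxd11: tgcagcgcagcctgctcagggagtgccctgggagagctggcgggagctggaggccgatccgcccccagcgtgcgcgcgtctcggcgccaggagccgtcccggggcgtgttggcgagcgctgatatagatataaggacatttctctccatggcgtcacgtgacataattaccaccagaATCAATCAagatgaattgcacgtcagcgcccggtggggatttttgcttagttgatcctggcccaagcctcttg
Hoxa10: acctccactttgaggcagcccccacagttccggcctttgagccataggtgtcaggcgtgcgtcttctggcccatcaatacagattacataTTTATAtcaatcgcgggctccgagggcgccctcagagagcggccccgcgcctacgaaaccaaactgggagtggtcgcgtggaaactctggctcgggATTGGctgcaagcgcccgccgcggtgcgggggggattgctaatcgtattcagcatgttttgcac
Hoxd1: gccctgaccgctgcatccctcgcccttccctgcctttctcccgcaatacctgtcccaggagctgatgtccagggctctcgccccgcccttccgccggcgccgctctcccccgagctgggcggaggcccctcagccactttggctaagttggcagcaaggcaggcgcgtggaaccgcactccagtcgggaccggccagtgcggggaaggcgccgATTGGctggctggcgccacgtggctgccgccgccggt
In capitals, the Hoxd11 window held a match to the joint Hox and Pbx site, the Hoxa10 window a TATA match with the TTTAT letters inside it, and the Hoxd10, Hoxa10 and Hoxd1 windows a CCAAT match on the other strand. Hoxd11 and Hoxa10 have a second window each, at an upstream start, which is not shown. The second Hoxd11 window (chr2:74679308-74679557) held 2 TTTAT matches and 0 joint Hox and Pbx sites, and the second Hoxa10 window (chr6:52240855-52241104) held 1 TTTAT match and 0 TATAAA and CCAAT matches. TGATTNAT was found in 2 of the 22 Hox windows and in 2.82% of 32851 windows of all genes. CCAAT was found in 12 of 22 Hox windows against 33.8% of all windows, TTTAT in 7 of 22 against 37.3%, and TATAAA in 3 of 22 against 12.4%. The motifs and the windows to show were chosen after the sequences had been seen, so these shares are descriptions.

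Array medians ran from 132 to 146 intensity units over the 30 arrays. No detection calls were used here, so a low value could not be set against background, and a probe set's level depends on its own sequence, so levels are compared between samples and not between probe sets. In IML against somatic, limma's moderated test with Benjamini-Hochberg adjustment called 3 of 5 measured visceral markers higher (Penk, Tac1 and Adcyap1, which encode neuropeptides) and 2 of 6 motoneuron markers lower (Nefh and Nefl, neurofilament subunits), where 5.52% of all 12422 probe sets were called in either direction. Of the visceral markers not called, Sst was higher in IML by 0.94 (adjusted p 0.0897) and Nos1 by 0.01 (adjusted p 0.925). Nos1 averaged 5.72 in IML, 5.69 in LMN and 5.73 in MMN. Chat and Slc5a7, which define cholinergic neurons, were not measured here, and Slc18a3, the vesicular acetylcholine transporter, averaged 7.18 in IML, 8.73 in LMN and 8.30 in MMN. Of 10 meningeal and fibroblast markers 6 were called higher in IML, and of 10 microglia and macrophage markers 6. Called higher were also 1 of 8 astrocyte and 1 of 9 endothelial markers, and 0 of 8 oligodendrocyte, 0 of 5 inhibitory and 0 of 2 excitatory interneuron markers were called. In these bulk samples, fewer cells of a type and less RNA per cell cannot be told apart.

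The IML sample of animal 4 stood apart. It lay at least 1.5 log2 units above every other sample in 16 of 12422 probe sets, or 0.129%, and both Hoxd1 probe sets were among them. The others included Fxyd2 by 3.15 and Scn10a, a sodium channel of pain-sensing neurons, by 3.06. The neuropeptide gene Nmb stood above by 2.81 and the actin regulator Avil by 2.53. Also among the 16 were Ly86 by 2.32, Slc7a7 by 1.82 and S100a6 by 1.78, which are not on the sensory list below. A list of 28 sensory neuron genes was then written, with 6 of them already seen to be high in this sample. Of the 13 measured genes, 8 were highest there, against 6.02% of all probe sets. Among the 7 measured genes that had not been seen before the list was written, 2 were highest there, Th by 1.10 and Isl1 by 0.17. The mean log2 level of the list ran from 6.48 to 8.47 in IML, from 6.25 to 6.59 in LMN and from 6.26 to 6.96 in MMN. Its summed level ran from 1560 to 9906 in IML, from 1210 to 3828 in LMN and from 1678 to 3665 in MMN. Animal 4 gave the highest IML sum. The count of 8, the means and the sums include the 6 genes already seen to be high there. Their outcome was thus largely set in advance, and they are descriptions. Results that rest on this sample are given with and without it. Tac1, which is also on the sensory list, was 2.14 higher in IML than in somatic (adjusted p 0.0397 by limma), and without this sample it was 1.46 higher and not called (adjusted p 0.0631). Without it, the test called higher 2 of 5 visceral markers, 4 of 10 markers of meninges and fibroblasts and 6 of 10 of microglia and macrophages, with 1 of 6 motoneuron markers lower, and 4.44% of all probe sets in either direction.

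**Figure D1:**
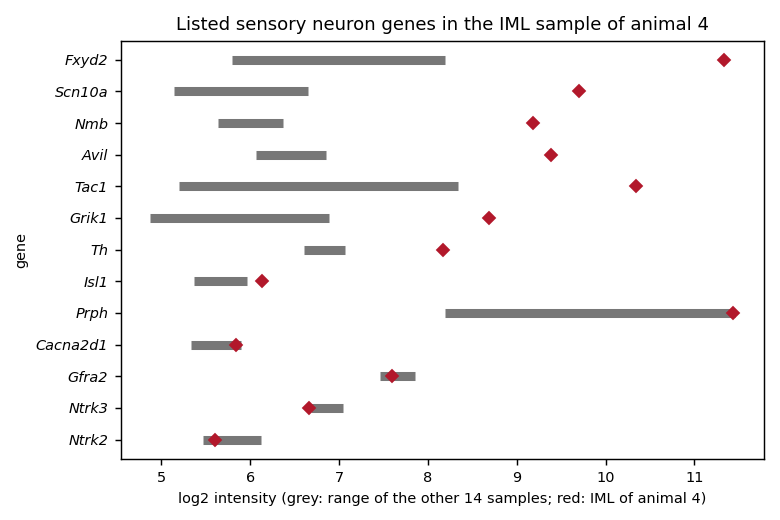
Log2 intensity (x axis) of the 13 measured sensory neuron genes (y axis): the red diamond is the IML sample of animal 4 and the grey bar spans the other 14 samples. The diamond lies beyond the bar for 8 genes, by 3.15 for Fxyd2 and 3.06 for Scn10a, and the genes were in part listed after their values were seen.

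Autonomic and somatic motoneurons sit in different columns, and IML was first compared with the mean of LMN and MMN within each animal. Of the 38 Hox probe sets, 0 passed limma's moderated test at an adjusted p under 0.05, while 5.52% of all probe sets did. At an unadjusted p under 0.05, 7 members passed (Hoxa4, Hoxa6, Hoxa7, Hoxa9, Hoxa10, Hoxd10 and Hoxd11), or 18.4%, where 20.7% of all probe sets did. Each of these 7 was lower in IML, where 9.78% of all probe sets were lower at that level. Of the 7, 5 lie in cluster a, which holds 14 of the 38 members. Hoxa4 and Hoxa6 each passed with 1 probe set, while 2 of 4 Hoxa4 and 1 of 2 Hoxa6 probe sets were higher in IML. The differences were small: 25 of 38 were under 0.1 log2 units in size, 9 lay between 0.1 and 0.25, and 4 exceeded 0.25. The share under 0.1 was 65.8%, against 63.2% of all probe sets. The median difference was -0.02 over the members and -0.01 over all probe sets, and 23 members were lower and 15 higher in IML. For 34 of 38 members, or 89.5%, the 95% interval of the difference lay within 0.5 log2 units of 0, against 87.9% of all probe sets. Leaving out a single animal turned the sign of 19 of the 38 differences, the largest of them 0.31 in size (Hoxd1 with 98819_at). The share of sign turns over all probe sets was not computed, so this count has no background. The IML and somatic samples were fully separated for 0 members, against 0.29% of all probe sets, and 4 members differed in the same direction in 5 of 5 animals, or 10.5%, against 15.7%.

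**Figure D2:**
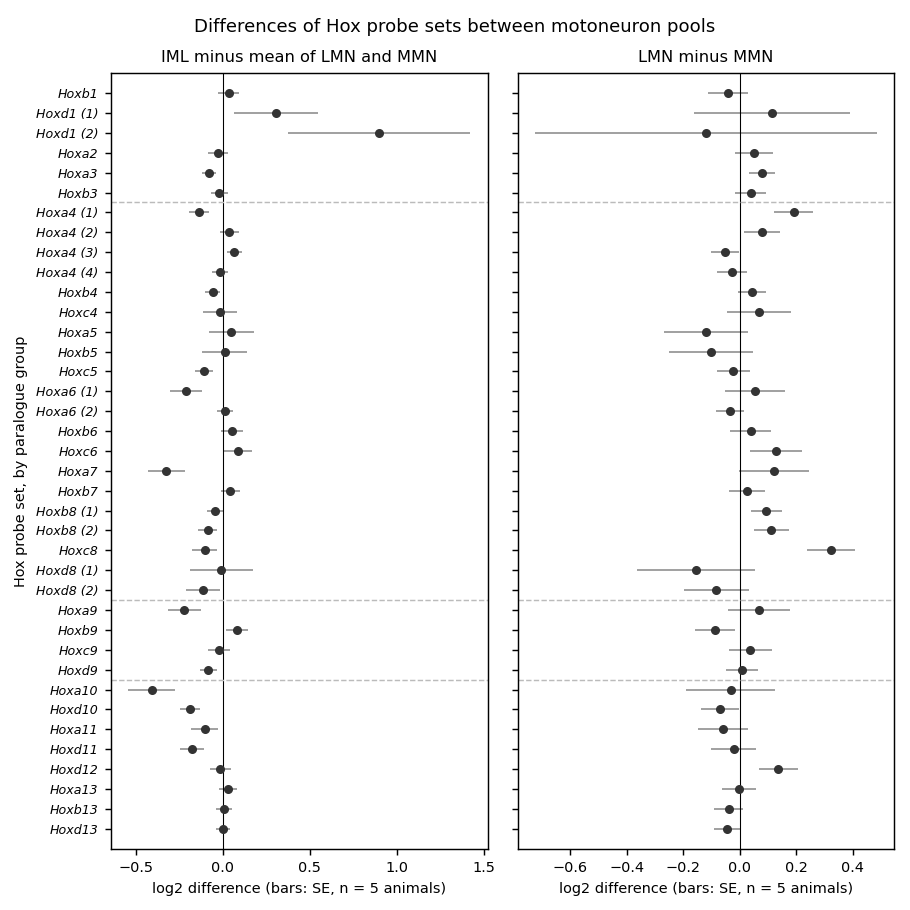
Log2 difference (x axis) of each Hox probe set (y axis, ordered by paralogue group, with dashed lines after groups 3, 8 and 9) for IML minus the mean of LMN and MMN (left) and LMN minus MMN (right). Points are fitted differences and bars are limma's moderated SE (n = 5 animals). The panels have different scales. Most points lie within 0.1 of 0, Hoxd1 is the highest on the left at 0.90 with a wide bar, and Hoxc8 is the highest on the right at 0.32.

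Each somatic pool was also set against IML on its own; these comparisons share the IML samples with the one above, and their values are given side by side. Against LMN, 0 of 38 members passed the adjusted threshold, where 8.98% of all probe sets did, and 9 passed at an unadjusted p under 0.05, or 23.7%, where 23.5% of all did. All 9 were lower in IML (Hoxa3, Hoxa4, Hoxa6, Hoxa7, Hoxb8, Hoxc8, Hoxa9, Hoxa10 and Hoxd10), against 12.1% of all probe sets. The smallest adjusted p was 0.0589, for the Hoxa4 probe set 162402_r_at, which was also the single member whose IML and LMN samples did not overlap, where 3.24% of all probe sets did not. Against MMN, 0 of 38 members passed, where 0.346% of all probe sets did, and 3 passed at an unadjusted p under 0.05, all lower in IML (Hoxa10, Hoxd10 and Hoxd11), or 7.89%, where 12.3% of all did and 5.50% were lower. Samples did not overlap for 0 members against MMN, where 0.604% of all probe sets did not. The sign was the same in 5 of 5 animals for 6 members against LMN, or 15.8%, where it was for 20.7% of all, and for 5 against MMN, or 13.2%, where it was for 9.36%. Some of these calls depend on the processing: without animal 1, Hoxa7 passed in IML against somatic (a difference of -0.42, adjusted p 0.0278) and against LMN, and without animal 5, Hoxa9 passed against LMN. With technical set 2 alone, which is 1 of the 2 arrays of each sample, Hoxa7 passed in both comparisons. With the animal as a random block, 1 Hoxa4 probe set and Hoxa7 passed against LMN. A Hoxa4 probe set also passed there with arrays shifted to one median, with quantile normalization and with a trended robust fit.

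The lateral and medial somatic pools were next set against each other. Of the 38 members, 0 passed limma's moderated test for LMN minus MMN, where 0.0564% of all probe sets did, and 2 passed at an unadjusted p under 0.05 (Hoxc8 and a Hoxa4 probe set, both higher in LMN), or 5.26%, where 11.6% of all did and 6.54% were higher in LMN. In size, 27 differences were under 0.1 log2 units, 10 lay between 0.1 and 0.25 and that of Hoxc8 exceeded 0.25. The share under 0.1 was 71.1%, against 66.0% of all probe sets. The median difference was 0.02 over the members and 0.02 over all probe sets. The LMN and MMN samples were fully separated for 0 members, against 0.555% of all probe sets, and 5 members differed in the same direction in 5 of 5 animals, or 13.2%, against 14.7%. The 95% interval lay within 0.5 log2 units of 0 for 34 of 38 members, or 89.5%, against 90.1% of all probe sets. Leaving out a single animal turned the sign of 13 of the 38 differences, the largest of them 0.12 in size (Hoxa5). Here too the share of sign turns over all probe sets was not computed.

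By paralogue group, the median difference of IML minus somatic was 0.01 in groups 1 to 3, -0.02 in groups 4 to 8, -0.05 in group 9 and -0.06 in groups 10 to 13. For LMN minus MMN the medians were 0.04, 0.04, 0.02 and -0.04 in the same order. These medians differed from each other by less than the animals did: in groups 10 to 13 the IML minus somatic median of a single animal ran from -0.16 in animal 4 to 0.03 in animal 3, and in groups 4 to 8 from -0.16 in animal 4 to 0.07 in animal 1. Without animal 1, the median of groups 4 to 8 was -0.10. By cluster, the IML minus somatic median was -0.05 in cluster a, 0.01 in cluster b, -0.02 in cluster c and -0.01 in cluster d.

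Groups 1 to 3 pattern the hindbrain and the upper neck in the embryo. Hoxb1, Hoxa2, Hoxa3 and Hoxb3 differed between IML and somatic by -0.08 to 0.04 log2 units, and the largest in size, that of Hoxa3, was lower in IML in 5 of 5 animals (adjusted p 0.299). Hoxd1, a cluster d gene that is known for its role in pain-sensing neurons of the dorsal root ganglia, was the exception in size. In animals 1 to 5 the probe set 98820_g_at read 3.87, 3.65, 3.95, 8.12 and 3.62 in IML. It read 3.62, 3.71, 3.74, 3.75 and 3.60 in LMN, and 3.63, 4.30, 3.73, 3.78 and 3.57 in MMN. The IML sample of animal 4 was far above the other 14 samples, which lay between 3.57 and 4.30, and without it the pools overlapped. The probe set 98819_at read 6.55, 6.21, 6.24, 8.28 and 6.24 in IML, 6.57, 6.31, 6.35, 6.57 and 6.47 in LMN, and 6.16, 6.41, 6.34, 6.31 and 6.47 in MMN. Again the same sample was the highest and the remaining samples overlapped across the pools.

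The high Hoxd1 value was present on both arrays made from that RNA, at 8.03 and 8.53 with 98819_at and at 8.03 and 8.21 with 98820_g_at. The IML minus somatic difference was 0.90 ± 0.52 (limma's moderated SE, n = 5 animals, adjusted p 0.379) with 98820_g_at and 0.31 ± 0.24 (adjusted p 0.533) with 98819_at. Without the IML sample of animal 4 these became 0.04 and -0.07. The sensory genes Scn10a, Fxyd2, Nmb and Avil were high in the same sample, and their relation to Hoxd1 was not tested. The LMN minus MMN difference of Hoxd1 was -0.12 with 98820_g_at (-0.0023 without animal 2) and 0.11 with 98819_at (0.04 without animal 1).

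**Figure D3:**
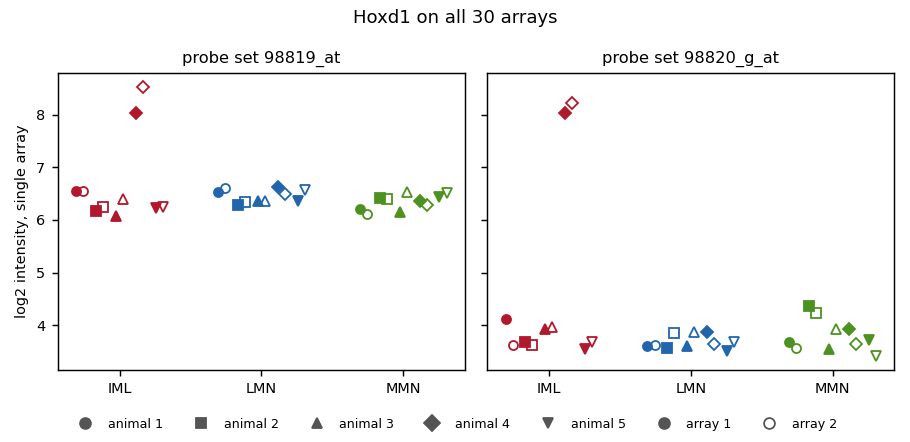
Log2 intensity (y axis) of the 2 Hoxd1 probe sets on each of the 30 arrays by pool (x axis), with the marker shape giving the animal and filled and open markers giving array 1 and array 2. Both arrays of the IML sample of animal 4 lie above 8.0 in both panels, above each of the other 28 arrays.

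Groups 4 to 8 pattern the neck, forelimb and trunk levels in the embryo. Hoxa7, a trunk gene of cluster a, read 8.71, 8.71, 8.20, 8.52 and 8.19 in IML in animals 1 to 5. It read 8.46, 9.20, 8.86, 8.85 and 8.88 in LMN, and 8.83, 8.89, 8.57, 8.96 and 8.40 in MMN. IML was below MMN in 5 of 5 animals and below LMN in 4 of 5, with animal 1 the exception, and the ranges of the pools overlapped. The IML minus somatic difference was -0.32 ± 0.11 (SE, 95% interval -0.56 to -0.09), with an unadjusted p of 0.0111 and an adjusted p of 0.103. Over the alternatives run, the adjusted p ranged from 0.0278 to 0.476.

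Hoxc8, which in the embryo marks lower forelimb and upper trunk levels and directs forelimb motor pools, had the largest difference between the somatic pools. In animals 1 to 5 it read 6.92, 7.35, 7.22, 7.22 and 7.22 in LMN and 6.52, 7.05, 6.64, 7.07 and 7.02 in MMN. LMN was above MMN in 5 of 5 animals, although the ranges overlapped because both values of animal 1 were the lowest of their pool. In IML it read 6.62, 7.24, 6.93, 6.69 and 7.11, below LMN in 5 of 5 animals. LMN exceeded MMN by 0.32 ± 0.09 (SE, 95% interval 0.14 to 0.51), with an unadjusted p of 0.00297 and an adjusted p of 0.184. IML was lower than LMN by a difference of -0.27 (adjusted p 0.0799). Over the alternatives run, the adjusted p for LMN minus MMN ranged from 0.105 to 1.00.

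**Figure D4:**
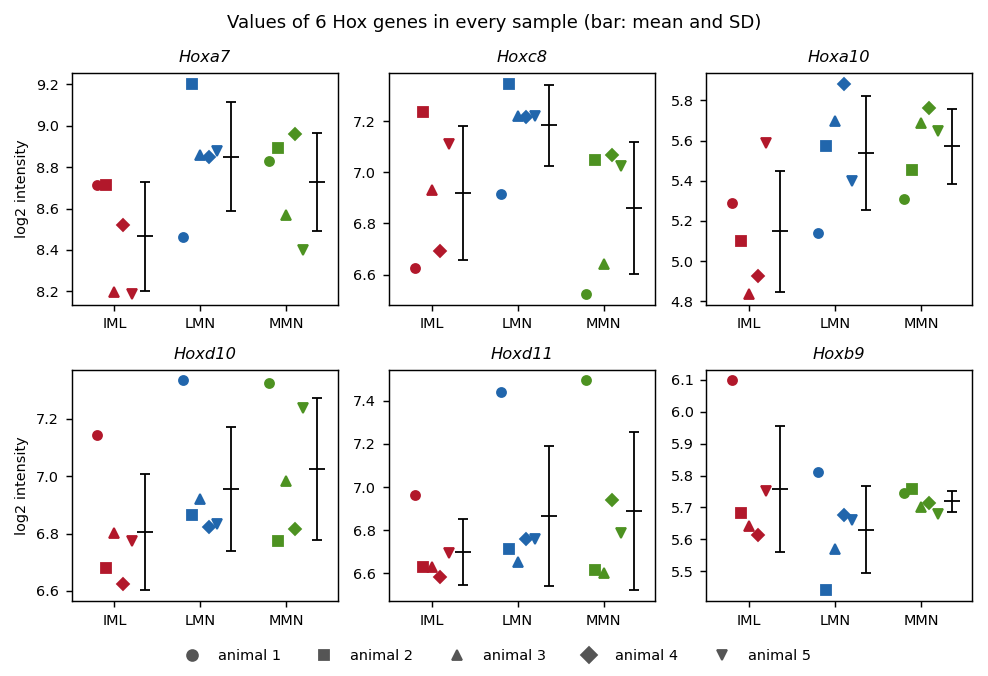
Log2 intensity (y axis, scaled separately in each panel) of 6 Hox genes in every sample by pool (x axis), with the marker shape giving the animal and the black bar the mean and SD of 5 animals. Hoxa7 and Hoxa10 have lower means in IML, Hoxc8 has its highest mean in LMN, and animal 1 is the highest sample of its pool for Hoxd11 in each pool.

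Hoxa4, a neck-level gene, was measured by 4 probe sets, and they did not move together. The probe set 162402_r_at read 3.96, 3.89, 3.66, 3.90 and 3.76 in IML, 4.03, 3.99, 3.96, 4.18 and 4.17 in LMN, and 3.76, 3.87, 3.88, 4.10 and 3.77 in MMN. The lowest LMN sample, at 3.961, lay just above the highest IML sample, at 3.957, and MMN overlapped both. LMN minus MMN was 0.19 ± 0.07 (adjusted p 0.306), in the same direction in 5 of 5 animals. The probe set 97746_f_at read 3.67, 3.42, 3.65, 3.47 and 3.56 in IML, 3.60, 3.42, 3.39, 3.42 and 3.48 in LMN, and 3.54, 3.46, 3.53, 3.42 and 3.60 in MMN. Its pools overlapped, and IML minus somatic was 0.07. The other 2 Hoxa4 probe sets, 97745_at and 97747_r_at, differed between IML and somatic by 0.04 and -0.02 and between LMN and MMN by 0.08 and -0.03. Over the 4 probe sets the IML minus somatic difference thus ran from -0.14 to 0.07.

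The Hoxb8 probe set 96418_r_at read 8.82, 8.53, 8.44, 8.48 and 8.53 in IML, 8.81, 8.58, 8.52, 8.85 and 8.76 in LMN, and 8.69, 8.55, 8.37, 8.77 and 8.58 in MMN. LMN was above MMN in 5 of 5 animals, by 0.11 ± 0.06 (adjusted p 0.530), and the ranges overlapped. The other Hoxb8 probe set gave 0.09 for the same comparison. Hoxa6 was lower in IML by -0.21 in 5 of 5 animals with 102579_f_at (adjusted p 0.223), and differed by 0.01 with 102580_r_at. The genes that act in the phrenic motor column, Hoxa5 and Hoxc5, differed between IML and somatic by 0.05 (-0.10 without animal 1) and -0.11 (-0.05 without animal 4). Hoxc6, which directs the lateral motor column at forelimb level, differed by 0.09, which became -0.015 without animal 1 and 0.16 without animal 4, and its LMN minus MMN difference was 0.13 (adjusted p 0.628). Differences of the other members of groups 4 to 8 (Hoxb4, Hoxc4, Hoxb5, Hoxb6, Hoxb7 and both Hoxd8 probe sets) ran from -0.11 to 0.06 for IML minus somatic and from -0.16 to 0.07 for LMN minus MMN.

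Group 9 genes act at trunk level, where Hoxc9 is known to promote the preganglionic column and hold back the forelimb program. Hoxc9 was read by the probe set 92891_f_at alone. Over 5 animals, its mean and SD were 7.31 ± 0.10 for IML, 7.35 ± 0.18 for LMN and 7.31 ± 0.10 for MMN. The IML minus somatic difference of this probe set was -0.02 with a 95% interval of -0.16 to 0.12. Hoxa9 averaged 7.91 ± 0.22 in IML, 8.16 ± 0.38 in LMN and 8.10 ± 0.20 in MMN, a difference of -0.22 ± 0.10 (unadjusted p 0.0415, adjusted p 0.219), lower in IML in 4 of 5 animals. Hoxb9 read 6.10, 5.68, 5.64, 5.61 and 5.75 in IML, 5.81, 5.44, 5.57, 5.68 and 5.66 in LMN, and 5.75, 5.76, 5.70, 5.71 and 5.68 in MMN. The IML sample of animal 1 was the highest, the pools overlapped, and the differences were 0.08 for IML minus somatic (0.02 without animal 1) and -0.09 for LMN minus MMN (-0.03 without animal 2). Hoxd9 differed by -0.08 between IML and somatic.

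Groups 10 to 13 pattern lumbar and sacral levels, and 3 of these 8 genes were among the 4 members with the lowest moderated t in IML against somatic. Hoxd10, which directs lumbar limb-innervating motoneurons, read 7.14, 6.68, 6.80, 6.62 and 6.77 in IML in animals 1 to 5. It read 7.34, 6.87, 6.92, 6.82 and 6.83 in LMN, and 7.33, 6.77, 6.98, 6.81 and 7.24 in MMN. Within each animal IML was the lowest pool, although the ranges of the pools overlapped and animal 1 was the highest animal in each pool. The IML minus somatic difference was -0.19 ± 0.06 (SE, 95% interval -0.31 to -0.06), the smallest p among the members in that comparison (unadjusted 0.00723, adjusted 0.0831). Over the alternatives run, the adjusted p ranged from 0.0501 to 0.686. In the annotation the Hoxd10 and Hoxd9 probe sets share a sequence record, so which of the neighbouring genes they read is uncertain.

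Hoxa10, which acts with Hoxd10 at lumbar level, had the largest decrease in size. It read 5.29, 5.10, 4.84, 4.93 and 5.59 in IML, 5.14, 5.57, 5.70, 5.88 and 5.40 in LMN, and 5.31, 5.46, 5.69, 5.76 and 5.65 in MMN. IML was below MMN in 5 of 5 animals and below LMN in 3 of 5, with animals 1 and 5 the exceptions. The IML minus somatic difference was -0.41 ± 0.14 (95% interval -0.71 to -0.11, adjusted p 0.108), and without animal 4 it was -0.29. Hoxd11 read 6.96, 6.63, 6.63, 6.59 and 6.69 in IML, 7.44, 6.72, 6.65, 6.76 and 6.76 in LMN, and 7.50, 6.62, 6.60, 6.94 and 6.79 in MMN. Animal 1 was the highest in each pool, and the other animals overlapped. The difference was -0.18 ± 0.07 (adjusted p 0.172), and without animal 1 it was -0.09.

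The other 5 genes of these groups differed less between IML and somatic. Hoxd12, which acts in limb and tail patterning, read 5.17, 4.66, 4.89, 4.83 and 4.99 in IML, 5.17, 4.86, 4.81, 5.19 and 4.91 in LMN, and 4.96, 4.75, 4.69, 4.96 and 4.90 in MMN. LMN was above MMN in 5 of 5 animals, by 0.14 ± 0.07 (adjusted p 0.482), with overlapping ranges. Hoxd13, the last gene of cluster d, read 6.71, 6.54, 6.51, 6.41 and 6.57 in IML, 6.72, 6.46, 6.49, 6.46 and 6.49 in LMN, and 6.72, 6.48, 6.47, 6.56 and 6.61 in MMN. Its pools overlapped, with differences of 0.00 for IML minus somatic and -0.05 for LMN minus MMN. Hoxa11, Hoxa13 and Hoxb13 differed between IML and somatic by -0.10, 0.03 and 0.01, and without animal 1 by -0.011, -0.015 and -0.024.

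Markers of some other cells differed between the pools in which the Hox values were compared. In IML against LMN, limma called higher 10 of 10 meningeal and fibroblast and 7 of 10 microglia and macrophage markers. It called 4 of 6 motoneuron markers lower, where 8.98% of all probe sets were called. Without the IML sample of animal 4 these counts were 6, 7 and 3, against 8.11%. In IML against MMN, 0 of 10 meningeal and fibroblast and 0 of 10 microglia and macrophage markers were called, against 0.346%. Still, 10 of 10 meningeal and fibroblast markers were higher in IML than in MMN (median 0.76). For LMN minus MMN, 0 of these 10 were called and 0 were higher in LMN (median -0.66). The summed level of the 10 meningeal and fibroblast markers ran from 20937 to 28617 in IML, from 7719 to 20040 in LMN and from 9888 to 31679 in MMN. That of the 10 microglia and macrophage markers ran from 1912 to 3399 in IML, from 1643 to 1922 in LMN and from 1668 to 2496 in MMN. That of the 6 motoneuron markers ran from 4975 to 8140 in IML, from 9953 to 18331 in LMN and from 8412 to 12285 in MMN. By this sum the IML samples lay below the somatic ones. By the mean log2 level of the same markers, IML at 8.70 to 9.171 overlapped LMN at 9.03 to 10.3. MMN, at 9.174 to 9.93, lay just above IML. The part of these cell markers in the lower Hoxa7, Hoxa10, Hoxd10 and Hoxd11 values of IML was not tested. Nor was their part in the higher Hoxc8 values of LMN over MMN. The spinal level at which each pool was captured is not in the labels used here. Its part in these pool differences was not tested either.

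As over all probe sets, more members differed between animals than between pools. In an F test of the animal term in the limma model, chosen after the data had been seen, 19 of 38 members passed at an adjusted p under 0.05, or 50.0%, where 47.0% of all probe sets did. The pool term passed for 0 members, against 4.89% of all. By paralogue group the animal term passed for 2 of 6 members in groups 1 to 3, 8 of 20 in groups 4 to 8, 2 of 4 in group 9 and 7 of 8 in groups 10 to 13. Animal 1 gave the highest sample for 20 of 38 members, or 52.6%, where it did so for 48.3% of all probe sets, and animal 4 for 9, or 23.7%, where it did so for 11.9%.

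In groups 10 to 13, 7 of 8 genes were higher in animal 1 than in the other 4 animals over the 3 pools, with a median of 0.37 log2 units. The excess was 0.60 for Hoxd11, 0.51 for Hoxa11, 0.42 for Hoxd10, 0.38 for Hoxb13 and 0.37 for Hoxa13, and Hoxa10 was the exception at -0.22. Hoxa11, for example, read 5.64 in IML, 5.97 in LMN and 6.25 in MMN of animal 1, while the other 12 samples lay between 5.36 and 5.68. Over all 38 members the median excess of animal 1 was 0.12, against 0.10 over all probe sets and 0.15 over probe sets under the overall median, where all 8 genes of groups 10 to 13 lie. Of all probe sets 65.5% were higher in animal 1, and of those under the overall median 79.1%.

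Among the middle groups the direction was mixed. Hoxa5, which directs phrenic motoneurons, was lower in animal 1 by -0.69 and higher in animal 3 by 0.75. In animals 1 to 5 it read 8.52, 8.56, 9.06, 8.35 and 8.86 in IML, 7.96, 8.62, 9.01, 8.64 and 8.58 in LMN, and 7.78, 8.62, 9.64, 8.53 and 8.84 in MMN. Animal 3 was the highest in each pool and animal 1 the lowest in LMN and MMN. The Hoxd8 probe set 160460_at was likewise lower in animal 1 by -0.38 and higher in animal 3 by 0.71, and Hoxa9 and Hoxc8 were lower in animal 1 by -0.39 and -0.38. The spinal level of each capture is not in the labels used here, and its part in these animal differences was not tested.

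**Figure D5:**
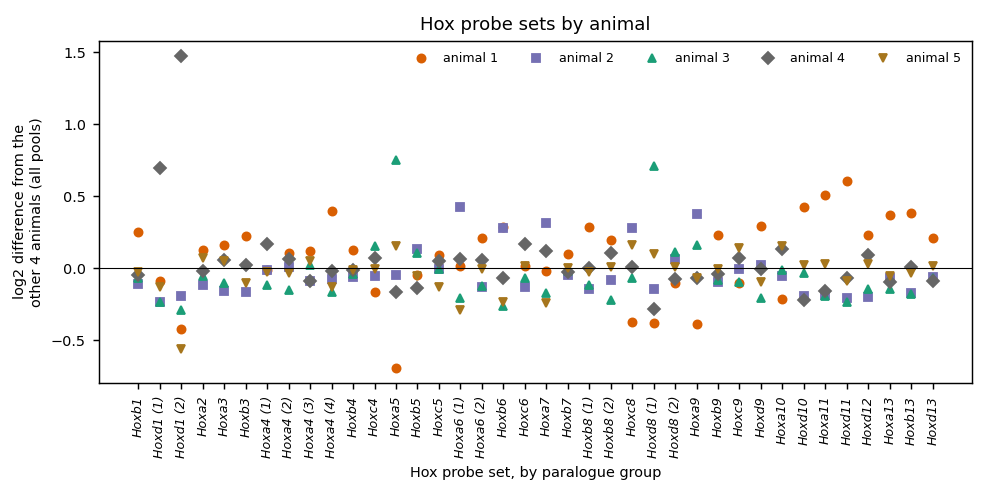
Log2 difference of each animal from the mean of the other 4 animals over the 3 pools (y axis) for every Hox probe set in order of paralogue group (x axis), with colour and shape giving the animal. Animal 1 (orange circles) lies above 0 for 7 of the 8 genes of groups 10 to 13 and below for Hoxa5 at -0.69, animal 3 is at 0.75 for Hoxa5, and animal 4 is high for Hoxd1.

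Cofactors bind DNA together with Hox proteins. Of 6 measured genes among 9 listed Pbx, Meis and Pknox genes, 0 were called in IML against somatic by limma; Meis1 was higher by 0.34 ± 0.10 (adjusted p 0.0644) and Pbx3 by 0.50 ± 0.16 (adjusted p 0.0985), each in 5 of 5 animals. Against LMN, Meis1 rose in IML by 0.48 ± 0.11 (adjusted p 0.0226), and the other 5 were not called. For LMN minus MMN, 0 of 6 were called, with Meis1 at -0.27 (adjusted p 0.372) and Meis3 at 0.11 (adjusted p 0.494). The median of the list for IML minus somatic was 0.06, against -0.01 over all probe sets. The shares of all probe sets called in either direction, against which this and the next lists are read, were 5.52% in IML minus somatic, 8.98% in IML minus LMN, 0.346% in IML minus MMN and 0.0564% in LMN minus MMN.

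Signals that switch Hox genes on along the embryo, such as retinoic acid, Cdx factors, FGF and Gdf11, were covered by 20 measured genes of 23. In IML against somatic, Acvr2a, a receptor for activins and Gdf11, rose by 0.52 ± 0.09 (adjusted p 0.00958), 0 genes fell and 19 were not called, with a list median of 0.00. Without the IML sample of animal 4, Aldh1a1 was also called (0.40, adjusted p 0.0117). Against LMN 5 of 20 genes were higher in IML, where 8.98% of all probe sets were called. These were Acvr2a by 0.69 (adjusted p 0.00329), Crabp2, a retinoic acid binding protein, by 0.77 (adjusted p 0.0131), and the retinaldehyde dehydrogenases Aldh1a1 by 0.44, Aldh1a2 by 0.27 and Aldh1a3 by 0.27 (adjusted p 0.0235, 0.0301 and 0.0213). Against MMN 0 of 20 were called. Crabp2 averaged 5.70 in IML and 5.73 in MMN, and Aldh1a2 6.31 and 6.36, while Acvr2a, Aldh1a1 and Aldh1a3 averaged higher in IML than in MMN. For LMN minus MMN 0 of 20 were called, with Crabp2 at -0.80 (adjusted p 0.101) and Aldh1a2 at -0.32 (adjusted p 0.126), each lower in LMN in 5 of 5 animals. Meningeal and fibroblast markers, 10 of 10 of which were called higher in IML than in LMN (6 of 10 without the IML sample of animal 4), moved in the same direction, and their part in these changes was not tested.

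Chromatin proteins that keep Hox genes on or off gave no calls. Of 21 measured Polycomb and Trithorax genes among 29 listed, 0 were called in any of the 4 comparisons (without the IML sample of animal 4, Phc1 was called against LMN at 0.34, adjusted p 0.0184); in IML against somatic Rnf2, a catalytic Polycomb subunit, was at 0.25 (adjusted p 0.0728) and Jarid2, an accessory subunit, at 0.11 (adjusted p 0.147). Of 15 measured genes among 22 that Hox proteins act on or with in motor columns, Ret, a receptor for glial cell line-derived factors, fell in IML by 0.34 log2 units (SE 0.07, adjusted p 0.0206), and 14 were not called. Against LMN, Ret at -0.41 (adjusted p 0.0128) and Lhx3, a homeodomain factor of medial motoneurons, at -0.19 (adjusted p 0.0339, and 0.0612 without the IML sample of animal 4) fell in IML. For LMN minus MMN 0 of 15 were called, with Gfra1, a co-receptor of Ret, at 0.25 (adjusted p 0.231) and Foxp1, which sets lateral column identity with Hox proteins, at -0.20 (adjusted p 0.319). Among 6 measured homeobox genes related to Hox, Meox2, a mesodermal and vascular factor, rose in IML against somatic by 0.68 ± 0.16 (adjusted p 0.0360) and 5 were not called, with Evx1, whose gene lies beside cluster a, at -0.19 (adjusted p 0.0724).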

How the data were processed

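The deposited values were Affymetrix intensity values on a linear scale, 1 column for each of 30 arrays, which the authors had normalized with a package given as R-pack and turned back from logs, per the labels; the labels name neither its version nor the chip summary method. Of 12488 probe sets, 66 controls were left out. Of the remaining 12422 probe sets, 10833 had a single gene symbol, 396 several and 1193 none, and 10817 symbols were updated through the gene identifier. Values were put on the log2 scale with no floor or filter, and each sample is the mean of its 2 technical arrays.

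limma 3.58.1 in R 4.3.3 fitted pool and animal as fixed terms to 15 samples (lmFit and eBayes), with p-values adjusted by Benjamini-Hochberg over 12422 probe sets and a threshold of 0.05. The code was tested on simulated data. The number of animals, 5, limits the precision. The pairing comes from the animal numbers in the labels, and deviations from the pool means correlated between samples of an animal in 15 of 15 pairs, at 0.29 to 0.75 over all probe sets. Over the 38 members alone they ran from -0.16 to 0.90 and were below 0 in 4 of 15 pairs.

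Values in every sample are given, in each of IML minus somatic and LMN minus MMN, for the 4 highest and 4 lowest members by moderated t, which were 13 probe sets of 11 genes. Hoxa5 and single values of others were added after their values were seen. From each of 5 pathway lists the called genes are named. Where none was called, the 2 with the smallest p are given for some comparisons. In IML minus MMN no gene of these lists was called, and none was picked by p. A gene outside the Hox clusters is represented by its brightest probe set. The members and the lists were chosen with earlier results of these data known. Alternatives covered the animal term, the technical set, normalization, filters, a floor, the threshold and leaving out animals; leaving out the IML sample of animal 4 alone, for members and lists, and leaving out animals for members not named by the rule were chosen after seeing the data.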

Additional observations from a re-analysis of the deposited data

Results flagged for a closer look

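In 114 groups of 5 samples (38 members in 3 pools), 13 groups, or 11.4%, held a sample far from the rest of its pool, where chance flags about 1 in 20, or 5.7 groups. Over all probe sets 6.67% of 37266 such groups did, and animal 1 gave 55.4% of those samples. Of the 13 samples among the members 11, or 84.6%, came from animal 1 and 2 from animal 4, and each was the highest of its pool.

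In IML, animal 4 stood far above the others for Hoxd1, at 8.28 with 98819_at (next 6.55) and at 8.12 with 98820_g_at (next 3.95). Animal 1 was far above the others in IML for Hoxa4 with 97747_r_at at 9.82, Hoxc6 at 7.37, Hoxb8 at 5.77 with 96417_s_at and at 8.82 with 96418_r_at, Hoxb9 at 6.10, Hoxd11 at 6.96 and Hoxb13 at 7.00. In LMN it was far above the others for Hoxa4 with 97747_r_at at 9.67, Hoxd10 at 7.34, Hoxd11 at 7.44 and Hoxd13 at 6.72. In MMN, 0 of 38 members held such a sample.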

How the results depend on the processing

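Of the counts and group medians recomputed under the alternatives, 182 stayed on their side of the threshold or within the spread between animals and 12 moved. The count of Hox probe sets called in IML minus LMN, 0 as reported, was 2 with the animal as a random replicate block (Hoxa4 and Hoxa7), 1 with technical set 2 alone (Hoxa7), 1 each with arrays shifted to one median, with quantile normalization and with a trended robust fit (Hoxa4 each time), 3 at a threshold of 0.1 (Hoxa4, Hoxa7 and Hoxc8), and 0 to 1 without single animals. In IML minus somatic it was 1 with technical set 2 alone (Hoxa7), 1 at a threshold of 0.1 (Hoxd10) and 0 to 1 without single animals (Hoxa7 without animal 1). The median of groups 4 to 8 in IML minus somatic ran from -0.10 to -0.0020 without single animals. With no replicate block the count was 0 in each of the 4 comparisons, while the probe sets called in all fell from 686 to 46 in IML minus somatic, from 1116 to 135 in IML minus LMN, from 43 to 4 in IML minus MMN and from 7 to 0 in LMN minus MMN. The random block, at a correlation of 0.51, changed no other Hox call. Over all probe sets the IML minus somatic count was 282 with a floor of 32, 304 with technical set 1 alone, 1277 at a threshold of 0.1 and 164 to 650 without single animals, and that of LMN minus MMN was 67 when just these pools were fitted. Among the differences named by the rule, 4 reversed: Hoxd13 in LMN minus MMN was 0.0092 with technical set 1 alone, Hoxd10 in LMN minus MMN ran from -0.11 to 0.012 without single animals (the latter without animal 5), and Hoxd1 with 98819_at in IML minus somatic ran from -0.074 (without animal 4) to 0.44 without single animals and was -0.074 without the IML sample of animal 4 alone. The cause was not tested for Hoxd13 and Hoxd10. Probe sets with every value under the floor of 32 gave no value there. With 5 animals the median SE of a member in IML minus somatic was 0.060 log2 units, and with no detection calls it is not known which dim values lay above background.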

Other observations

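The median SD between the 2 arrays of a sample was 0.126 log2 units over the members and 0.132 over all probe sets. Among the members it was highest for Hoxa5 (0.245) and lowest for Hoxb9 (0.0763).

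Genes with several probe sets did not always give a single direction. For IML minus somatic, the probe sets of Hoxb8, Hoxd1 and Hoxd8 had the same sign and those of Hoxa4 and Hoxa6 did not. For LMN minus MMN, those of Hoxb8 and Hoxd8 had the same sign, and those of Hoxa4, Hoxa6 and Hoxd1 did not.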
